A study of Mus musculus with 6 samples.

Results

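The 10 genes described here encode intermediate filament proteins of glia and neurons, out of 55416 genes counted. They are Vim, Gfap and Nes of glia and progenitors, Nefl, Nefm, Nefh, Ina and Prph of neurons, and Synm and Sync, which belong to neither set here. They were taken by name as a gene family, and the set was chosen by a proposal made with results of these libraries in view. The counts of the members in the 6 libraries and their cKO against control contrast are therefore treated as used in the choice. Every difference between the groups below is a description and supports nothing beyond itself. RNA was measured in cells taken from the cortex of mice at postnatal day 11. They were labelled as oligodendrocyte precursor cells, the dividing progenitors of myelin-forming cells. In 3 samples, named Ift88 cKO, the genotype was Pdgfra-Cre:Ift88 fl/fl; RosaEYFP, and in the other 3, named Ift88 control, it was Pdgfra-Cre:Ift88 fl/wt; RosaEYFP. Both groups thus carried Cre driven from Pdgfra, a gene of precursor cells, the EYFP reporter and at least 1 floxed copy of Ift88, a gene needed to build the primary cilium. As a sample is a pool of 4 to 6 mice, the spread given is that between pools.

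Intermediate filaments are the rope-like part of the cytoskeleton, built from long coiled-coil proteins that pair along a shared central rod. Their genes are switched on by cell type: vimentin and nestin in neural progenitors and immature glia, GFAP in astrocytes, and the neurofilament proteins with alpha-internexin in neurons, where they fill the axon and set its calibre. A level of these genes in a cell population therefore depends both on which cells are present and on what each cell makes. Fewer cells of a type and less RNA per cell cannot be told apart in such pooled samples.

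Libraries held 13909236, 568509 and 11773548 counts in cKO replicates 1 to 3 and 13652035, 12756650 and 13568156 counts in control replicates 1 to 3. The shallow library, cKO replicate 2, held 3651 genes with a count, against 14047 to 16252 in the 5 deeper libraries, so the results that rest on it are also given without it. Levels are given as CPM, the count scaled to a library total of 1000000. A gene with 0 counts could still be at up to 5.28 CPM in cKO replicate 2 and at up to 0.216 to 0.255 CPM in the deeper libraries, by a limit of 3 counts. All limits and intervals cover counting error only, since PCR copies of a read are no separate molecules. A count of 0 can therefore stand for a level above these limits. Among genes with at least 20 counts the median count was 268 to 461 in every library, the shallow one included, at 273. Ift88 itself had 1, 0 and 305 counts in the cKO libraries and 143, 32 and 167 in the controls. The floxed exons are not named in the labels and the tags come from the 3' end, so this does not check the genotypes. Of 13 precursor markers, 5, 0 and 8 reached 20 counts in the cKO libraries and 4, 6 and 6 in the controls, and 3 did so in all of the 5 deeper libraries. Sox10, Gpr17, Tnr and Pcdh15 had 0 counts in all 6. Olig1 and Olig2 had counts only in cKO replicate 3, at 32 and 67, and Pdgfra had 0 counts in control replicate 1. The labelled cell type is thus borne by few of its markers, and neuron markers, given below, summed to far higher levels. The precursor markers summed to 7.04 to 225 CPM in the cKO libraries and to 234 to 487 CPM in the controls. In the 5 deeper libraries most of this sum came from Ptprz1 and C1ql1. Ptprz1 had 1983, 1 and 1366 counts in the cKO libraries and 2929, 2043 and 731 in the controls, and its CPM overlapped. C1ql1 had 282, 1 and 343 counts against 1256, 3784 and 1825. The sum thus reflects 2 genes more than the list. Single markers went both ways. C1ql1 was lower in CPM in every cKO library than in any control, with and without cKO replicate 2. This was so of 11.1% of all tested genes, and of 12.6% without that library. Without cKO replicate 2, Pdgfra, Cspg4 and Vcan were higher in cKO samples with no overlap, as were 13% of all tested genes.

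Promoter sequences of 7 of the 10 genes were found in RefSeq, from 250 bases before to 50 bases after the start site (build GRCm38.p6). Nefl, Nefm and Nefh had no entry. Vim and Gfap, the higher members of the glial set, and Ina, the neuronal member with an entry and the highest level, are printed to show how little the 3 windows share. Capitals mark each match, on either strand, to the CCAAT box (CCAAT), the TATA box (TATAAA) or a STAT-type palindrome (TTCNNNGAA). None of these matches overlapped another.
Vim (chr2:13574061-13574360, plus strand): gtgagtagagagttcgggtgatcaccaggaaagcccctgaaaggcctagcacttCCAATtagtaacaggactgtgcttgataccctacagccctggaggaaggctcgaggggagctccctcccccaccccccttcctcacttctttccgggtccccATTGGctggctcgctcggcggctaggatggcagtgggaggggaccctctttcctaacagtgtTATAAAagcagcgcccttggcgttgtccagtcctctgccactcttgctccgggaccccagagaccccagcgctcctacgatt
Gfap (chr11:102897151-102897450, minus strand): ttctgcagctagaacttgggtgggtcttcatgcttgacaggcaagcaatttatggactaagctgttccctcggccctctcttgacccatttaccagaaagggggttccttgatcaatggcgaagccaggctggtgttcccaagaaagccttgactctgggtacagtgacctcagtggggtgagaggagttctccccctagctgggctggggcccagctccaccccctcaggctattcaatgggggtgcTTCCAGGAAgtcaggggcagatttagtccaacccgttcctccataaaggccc
Ina (chr19:47014431-47014730, plus strand): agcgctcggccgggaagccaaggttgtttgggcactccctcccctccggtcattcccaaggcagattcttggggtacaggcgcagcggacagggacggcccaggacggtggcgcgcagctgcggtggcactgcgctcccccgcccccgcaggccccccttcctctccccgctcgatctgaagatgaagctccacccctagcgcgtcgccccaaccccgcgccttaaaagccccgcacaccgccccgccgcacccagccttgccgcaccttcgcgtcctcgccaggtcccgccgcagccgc
The Vim window holds a TATA box that begins 32 bases before the start site and 2 CCAAT boxes in opposite orientation. The Gfap window holds a STAT-type match that begins 2 bases before the start site, and the Ina window none of the motifs searched. Of all 32851 promoter windows, 37.4% hold a CCAAT box, 13.6% a TATA box and 8.30% the STAT-type palindrome. Of the 7 member windows, 2 hold each of these motifs. The cAMP response element bound by CREB, the factor named in the series title, was searched as TGACGTCA and as its shorter core TGACG, which lies within it. It was present in 0 of the 7 windows in either form, against 1.79% and 20.8% of all windows, and the AP-1 motif TGANTCA was in 0 of 7, against 7.81%. The letters are absent from these windows and nothing follows from that about the factors.

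Vim, which encodes vimentin, was the most abundant of the 10 genes in 5 of the 6 libraries. Its gene lies on chromosome 2 from 13578738 to 13587637 (GRCm39, as are all gene positions here). It had 24601, 106 and 25297 counts in the cKO libraries, or 1769, 186 and 2149 CPM, and 25869, 75861 and 60962 counts in the controls, or 1895, 5947 and 4493 CPM. Control replicate 1 stood beside cKO replicates 1 and 3, and the 2 groups overlapped. The mean was 1368 ± 1041 CPM in cKO samples and 4112 ± 2053 CPM in controls (SD, n = 3 each), and 1959 CPM in cKO samples without replicate 2. The cKO mean was 0.333 times the control mean, or 0.476 times without cKO replicate 2.

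Gfap, which encodes the main filament protein of astrocytes, was lower in every cKO library than in any control. It lies on chromosome 11 from 102778162 to 102791738. It had 619, 0 and 230 counts in the cKO libraries, or 44.5, 0 and 19.5 CPM, and 1825, 3585 and 3298 counts in the controls, or 134, 281 and 243 CPM. The groups did not overlap, with or without cKO replicate 2, and the same was true in this direction of 11.1% of all tested genes with all 6 libraries and of 12.6% without that library. The mean was 21.3 ± 22.3 CPM in cKO samples and 219 ± 76.5 CPM in controls (SD, n = 3 each), and 32.0 CPM in cKO samples without replicate 2. The cKO mean was 0.0974 times the control mean, or 0.146 times without cKO replicate 2. Gfap was also lower relative to Vim. In cKO replicates 1 and 3 there were 39.7 and 110 Vim counts per Gfap count, against 14.2, 21.2 and 18.5 in the controls. In cKO replicate 2 this ratio could not be formed because Gfap had 0 counts.

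Nes, which encodes nestin of neural stem and progenitor cells, was low in all 6 libraries. It had 91, 0 and 23 counts in the cKO libraries and 207, 0 and 178 in the controls, or 2.83 ± 3.36 and 9.43 ± 8.23 CPM (SD, n = 3 each), with a cKO mean of 4.25 CPM without replicate 2. A library without a count occurred in each group, so the groups overlapped. Its gene lies on chromosome 3 from 87878385 to 87887758.

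Among the neuronal genes, Nefl, which encodes the light neurofilament subunit on which the others assemble, was higher in every cKO library than in any control. It had 13221, 299 and 7524 counts in the cKO libraries, or 951, 526 and 639 CPM, and 4954, 1541 and 1119 counts in the controls, or 363, 121 and 82.5 CPM. The groups did not overlap with or without cKO replicate 2. In this direction 1.33% of all tested genes did not overlap with all 6 libraries, and 13% without that library. Its mean was 705 ± 220 CPM in cKO samples and 189 ± 152 CPM in controls (SD, n = 3 each), a ratio of 3.74, or 4.21 without cKO replicate 2. Nefl had the most counts of the 10 genes in the shallow library. It lies on chromosome 14 from 68321312 to 68326544, on the same chromosome as Ift88 and 10.6 megabases beyond its end.

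Ina, which encodes alpha-internexin, an early neuronal filament protein, had 4972, 2 and 4665 counts in the cKO libraries and 4306, 2108 and 740 in the controls. This was 357, 3.52 and 396 CPM against 315, 165 and 54.5 CPM. The groups overlapped with all 6 libraries, through cKO replicate 2. Without it the cKO values lay above the controls, as did 13% of all tested genes, and the control library nearest to them was again replicate 1. The mean was 252 ± 216 CPM in cKO samples and 178 ± 131 CPM in controls (SD, n = 3 each), and 377 CPM in cKO samples without replicate 2.

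Nefl and Ina did not move in proportion. There were 2.66, 149.5 and 1.61 Nefl counts per Ina count in the cKO libraries and 1.15, 0.731 and 1.51 in the controls. The cKO ratios were all above those of the controls, but that of cKO replicate 3 by little, and that of cKO replicate 2 rested on 2 Ina counts.

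Nefm, which encodes the medium neurofilament subunit and whose annotated span on the other strand contains Nefl, had 620, 0 and 1099 counts in the cKO libraries and 697, 117 and 149 in the controls. Its mean was 46.0 ± 46.7 CPM in cKO samples and 23.7 ± 23.7 CPM in controls (SD, n = 3 each), and the groups overlapped with and without cKO replicate 2. The ratio of the means was 1.94 with that library and 2.91 without it, where the cKO mean was 69.0 CPM. Annotated exons of Nefl and Nefm overlap on opposite strands over 32.8% of the exon bases of Nefl, but over 0% of its last 500 exon bases, where 3' tags fall. Nefh, which encodes the heavy subunit that is characteristic of mature large axons, had 0, 0 and 62 counts in the cKO libraries and 1, 2 and 44 in the controls. Of the 6 libraries, 2 thus held nearly all of its counts, with 1 in each group.

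Prph encodes peripherin, a filament protein of peripheral and of some brainstem and spinal neurons. It had 207, 0 and 92 counts in the cKO libraries and 0, 495 and 195 in the controls, or 7.57 ± 7.44 and 17.7 ± 19.6 CPM (SD, n = 3 each), with a cKO mean of 11.3 CPM without replicate 2. The groups overlapped, and the order of the libraries was unlike that of Nefl, since control replicate 2 was the highest. Of 8 markers listed for peripheral and projection neurons, 1 reached 20 counts in every deeper library, and Chat had 0 counts in all 6. The 8 summed to 1.76 to 109 CPM in the cKO libraries and to 41.1 to 64.5 CPM in the controls.

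Synm and Sync encode synemin and syncoilin, filament proteins best known from muscle that need a partner to assemble, and both had 0 counts in all cKO libraries. Synm had 113, 0 and 0 counts in the controls. Over the pooled groups it was at least 24.7-fold lower in cKO samples, against a limit of 3 counts for the whole group, although 2 of 3 control libraries were also at 0. Sync had 160, 0 and 139 counts in the controls and was at least 65.4-fold lower by the same limit. The final 500 exon bases of Sync lie 100% within exons of Rbbp4 on the opposite strand, and counting without strand leaves out reads that lie on both genes, so its counts are uncertain. These bounds cover counting error only, and the groups overlapped for both genes.

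**Figure D1:**
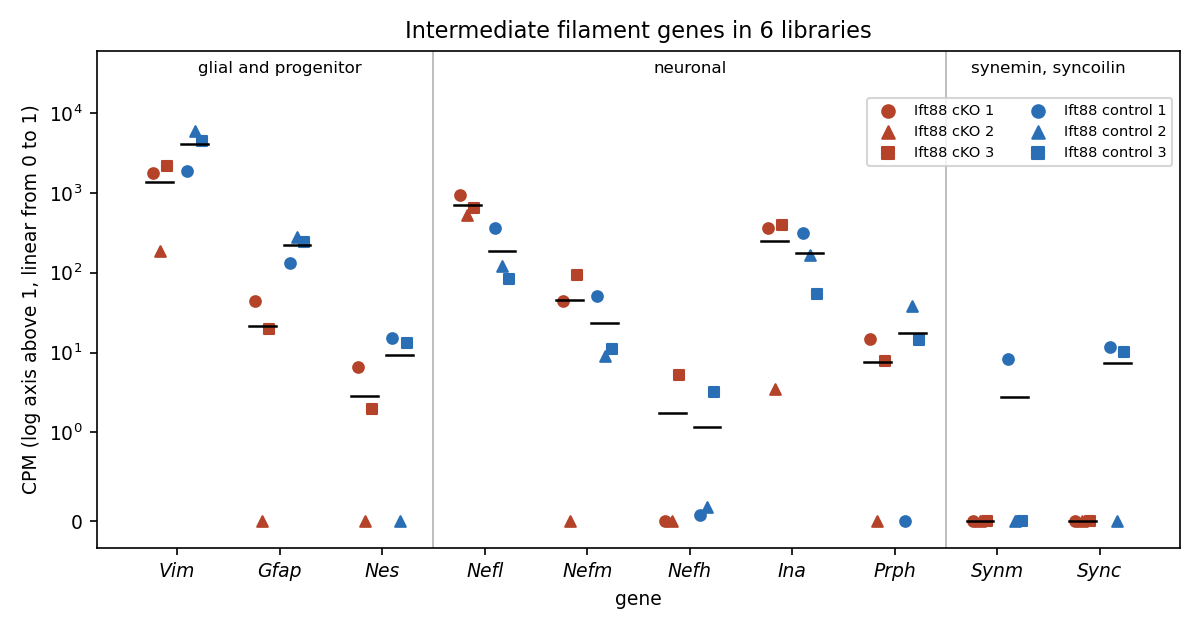
CPM of the 10 genes in each library, with cKO samples left of control samples for each gene, replicates marked by shape and the group mean by a line; the axis is logarithmic above 1 CPM and linear from 0 to 1. Gfap lies lower and Nefl higher in all 3 cKO libraries than in all 3 controls, while the other genes overlap.

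The model fitted to all genes gave the same directions with wide errors. Of the 10 members, 7 passed the filter on low counts with all 6 libraries and 9 without cKO replicate 2; Nefh and Sync entered only then, and Synm in neither. None of the 7 passed an adjusted p of 0.05 with edgeR's quasi-likelihood test, and 1 of 7, Vim, had an unadjusted p under 0.05. Over all 12833 genes 0.0156% passed the adjusted and 2.83% the unadjusted threshold. DESeq2 gave an adjusted p for 4 of the 7 members (Vim, Gfap, Nefl and Ina) and called 0 of these, against 0.228% of the 2191 genes with one, and 2 of 7, Gfap and Nefl, had an unadjusted p under 0.05, against 6.59%. With limma-voom 1 of 7, Nefl, passed the adjusted threshold, against 0.109% of all genes, and 2 of 7, Gfap and Nefl, the unadjusted, against 6.41%. Vim was thus under the unadjusted threshold with edgeR as set here and not with these 2 tools. With edgeR under RLE or upper-quartile scaling, without a filter or with the replicate block, Vim was not under it either. Without cKO replicate 2, 0 of 9 members passed the adjusted threshold by edgeR, against 0.00687% of all genes, and 3 of 9 the unadjusted, against 6.09%. As the members were chosen with this contrast known, nothing is read from these counts, and a p that misses the threshold does not show that the groups were alike.

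Vim had a log2 fold change of -1.59 (SE 0.44, edgeR adjusted p = 0.349), and of -1.06 (SE 0.44, edgeR adjusted p = 0.767) without cKO replicate 2. Over all alternatives the adjusted p of Vim ran from 0.497 to 1. For Gfap the log2 fold change was -3.32 (SE 1.76, edgeR adjusted p = 1), and -2.74 (SE 0.55, edgeR adjusted p = 0.662) without that library, in a range of 0.100 to 1. For Nefl it was 1.88 (SE 0.98, edgeR adjusted p = 1), and 2.07 (SE 0.62, edgeR adjusted p = 0.767) without that library, in a range of 0.0417 to 1. Only the value by limma-voom was below 0.05 for Nefl. The fitted log2 fold changes of Nefm, Ina, Nes and Prph were 0.94, 0.48, -1.62 and -1.18, each smaller than its standard error. The median over all tested genes was itself -0.44, and -0.06 without cKO replicate 2. The directions of Vim, Gfap and Nefl held under each of the scalings tried, also relative to that median.

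**Figure D2:**
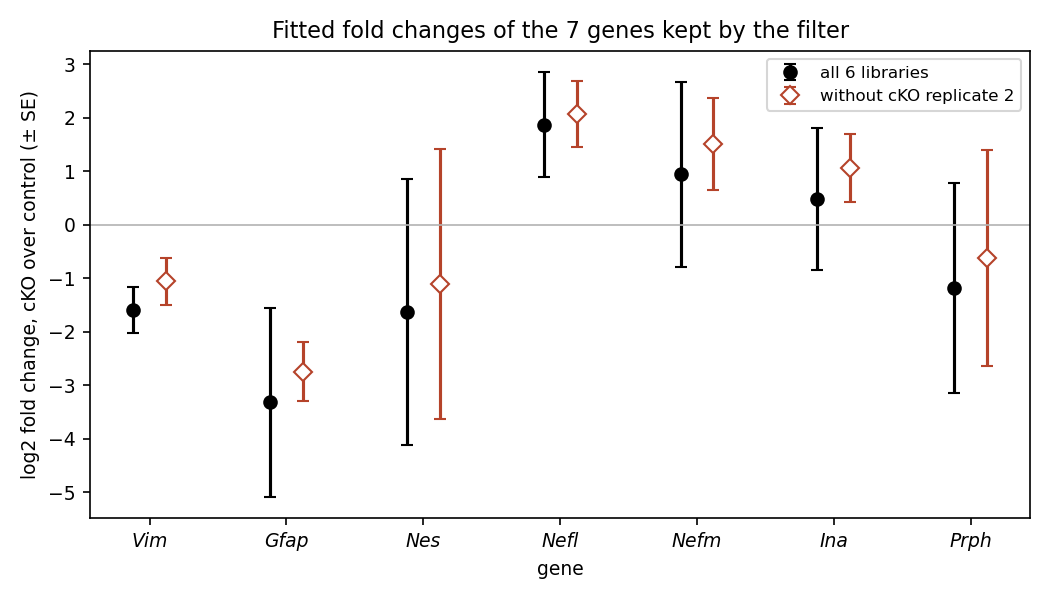
Log2 fold change of cKO over control samples with its standard error (vertical axis) for the 7 genes kept by the filter (horizontal axis), with all 6 libraries (filled circles) and without cKO replicate 2 (open diamonds). Vim, Gfap and Nes lie below 0 and Nefl, Nefm and Ina above it in both fits, and the errors shrink for Gfap and Nefl without that library.

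Set against each other within a library, the glial and neuronal members gave a ratio that did not overlap between the groups. Vim, Gfap and Nes together held 1820, 186 and 2170 CPM in the cKO libraries and 2044, 6228 and 4749 CPM in the controls. The 5 neuronal genes together held 1367, 529 and 1142 CPM in the cKO libraries and 729, 334 and 166 CPM in the controls. The share of neuronal members among the counts of all 10 genes was 42.9% (95% Wilson interval 42.4 to 43.4) in cKO replicate 1, 74.0% (69.5 to 78.0) in cKO replicate 2 and 34.5% (34.0 to 34.9) in cKO replicate 3. It was 26.1% (25.7 to 26.6) in control replicate 1, 5.09% (4.95 to 5.24) in control replicate 2 and 3.36% (3.23 to 3.50) in control replicate 3. Every cKO library had a higher neuronal share than any control, and the gap between control replicate 1 and the other controls was larger than that between it and cKO replicate 3.

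On a log2 scale the ratio of the glial to the neuronal sum (1 CPM added to each) was 0.41, -1.50 and 0.93 in the cKO libraries and 1.49, 4.22 and 4.83 in the controls. The mean was -0.05 ± 1.28 in cKO samples and 3.51 ± 1.78 in controls (SD, n = 3 each), a difference of -3.57, or -2.84 without cKO replicate 2. A ratio within a library does not depend on a scaling factor. Vim held 92.7% or more of the glial counts in every library, so the ratio is mostly that of Vim to the neuronal genes. With Vim left out, the difference was -5.84. In cKO replicate 2 Gfap and Nes had 0 counts, so its ratio without Vim rested on the added 1 CPM. The difference with both Vim and that library left out was not computed. No p is given, because the members were chosen with these values known.

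**Figure D3:**
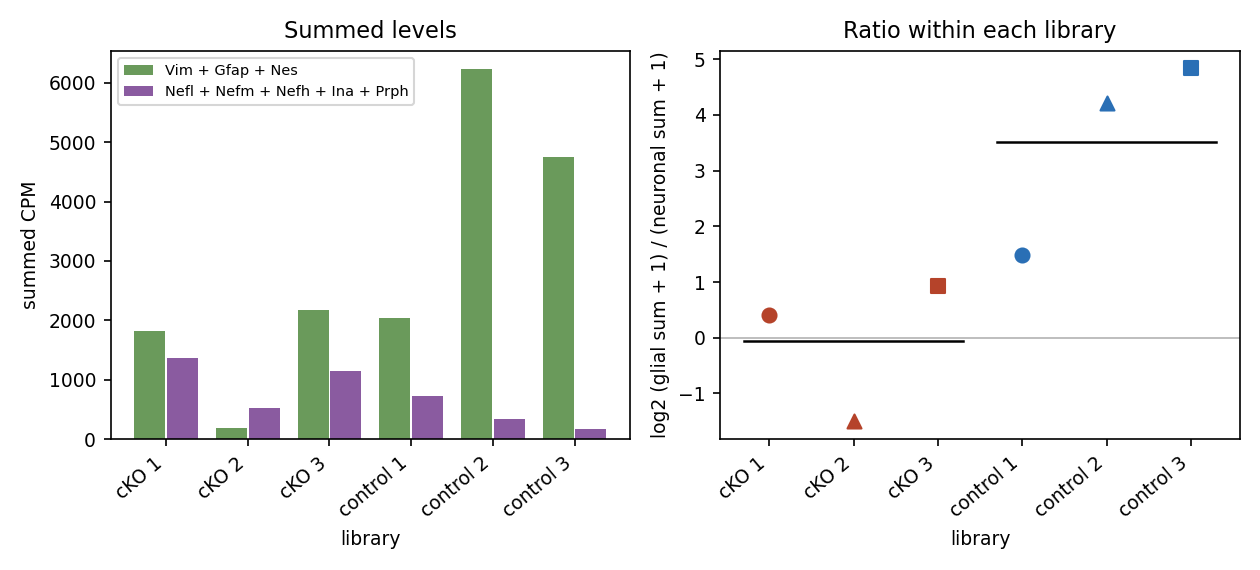
Left, summed CPM of the 3 glial and progenitor genes and of the 5 neuronal genes in each library. Right, log2 ratio of these sums in each library, with the group means as lines; the cKO libraries lie between -1.50 and 0.93 and the controls between 1.49 and 4.83.

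Markers of other cells also varied between libraries. The 12 astrocyte and radial glia markers, of which 8 reached 20 counts in every deeper library and 0 lacked a count throughout, summed to 974 to 1193 CPM in the cKO libraries and to 877 to 1503 CPM in the controls. The 12 neuron markers, of which 10 did so and 0 lacked a count throughout, summed to 9311, 2672 and 9964 CPM in the cKO libraries and to 9427, 7672 and 2998 CPM in the controls. Both lists overlapped between the groups, and the neuron sum of control replicate 1 lay between those of cKO replicates 1 and 3. Of the neuron markers, 0 separated the groups with all 6 libraries. Without cKO replicate 2, Snap25, Dcx and Gap43 were higher in cKO samples with no overlap, as were 13% of all tested genes. Dcx had 9539, 5 and 7310 counts in the cKO libraries and 2698, 1882 and 548 in the controls. Of the 12 astrocyte and radial glia markers, 4 (Aqp4, Aldh1l1, Mlc1 and Gja1) were lower in CPM in every cKO library than in any control, with and without cKO replicate 2. Slc1a3, a glutamate transporter gene of the same cells, was higher in every cKO library than in any control, and without that library S100b was too. The other markers of the list overlapped. Of all tested genes, 11.1% were lower with no overlap with all 6 libraries, and 12.6% without cKO replicate 2. In the higher direction the shares were 1.33% and 13%. Aqp4, Aldh1l1 and Mlc1 had 0 counts in the cKO libraries. In the controls Aqp4 had 43, 155 and 8 counts, Aldh1l1 93 to 244 and Mlc1 77 to 108. Gja1 had 1889, 0 and 1929 counts in the cKO libraries and 2478, 3975 and 2840 in the controls. Slc1a3 had 6315, 388 and 3457 counts in the cKO libraries and 3379, 2857 and 900 in the controls.

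Levels relative to these sums, a comparison chosen after the values were seen, kept the groups apart for Gfap and Nefl. Gfap was at 3.73, 0 and 1.90% of the astrocyte and radial glia sum in the cKO libraries and at 10.96, 18.7 and 27.7% in the controls. Nefl was at 10.2, 19.7 and 6.41% of the neuron sum in the cKO libraries and at 3.85, 1.57 and 2.75% in the controls. In cKO replicate 2 only 2 of 12 neuron markers (Tubb3 and Uchl1) reached 20 counts. Of the 12 astrocyte and radial glia markers, 2 (Slc1a3 and Glul) did so there. The percentages of that library thus rest on few markers and are not like those of the deeper libraries. Vim was at 148, 19.1 and 209% of the astrocyte and radial glia sum in the cKO libraries and at 155, 396 and 512% in the controls, and overlapped. Ina and Nefm relative to the neuron sum overlapped as well, with Ina at 3.84, 0.132 and 3.98% in the cKO libraries and at 3.35, 2.15 and 1.82% in the controls. Neither list measures how many cells of a type were present, and the part of such cells in these results was not tested.

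**Figure D4:**
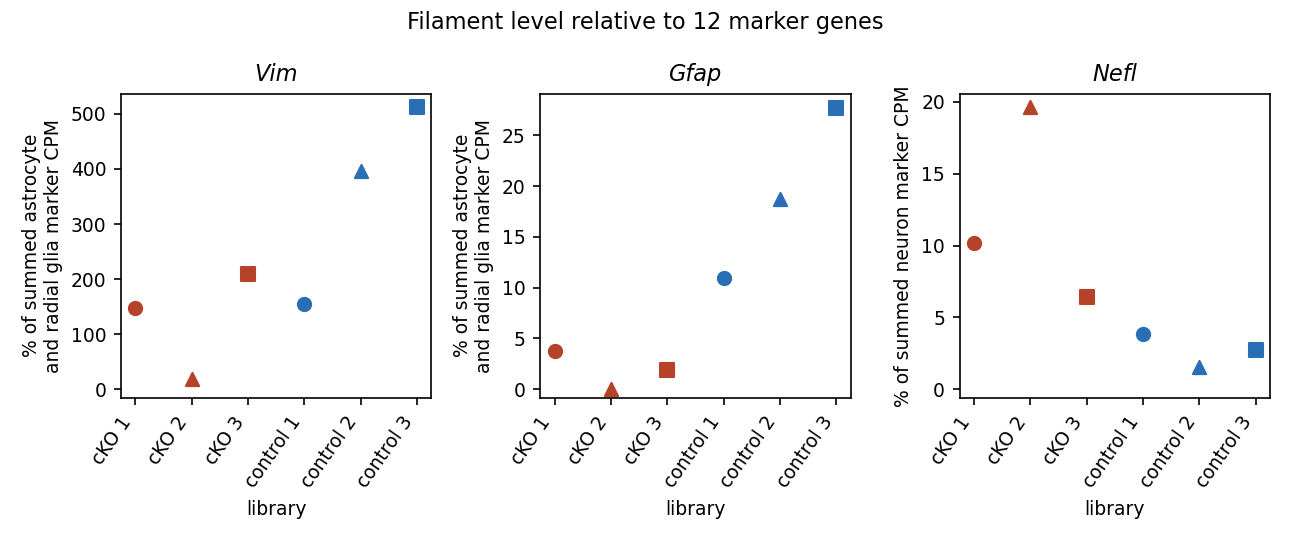
CPM of Vim and Gfap as a percentage of the summed CPM of 12 astrocyte and radial glia markers, and of Nefl as a percentage of the summed CPM of 12 neuron markers, in each library. The cKO libraries lie at 0 to 3.73% for Gfap and at 6.41 to 19.7% for Nefl, apart from the controls at 10.96 to 27.7% and 1.57 to 3.85%, and overlap them for Vim. In cKO replicate 2 only 2 of the 12 markers of each list reached 20 counts.

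The order of the levels varied between libraries, also within the controls. A 3' tag library yields about 1 tag per transcript whatever its length, so CPM can be compared between genes without a length term. In cKO replicates 1 and 3 the order by mean CPM was Vim, Nefl, Ina, Nefm, Gfap, Prph and Nes, and neighbours did not overlap down to Nes. Nes overlapped Nefh, and Synm and Sync were at 0. By the mean over the controls the order was Vim, Gfap, Nefl, Ina, Nefm, Prph, Nes, Sync, Synm and Nefh. In control replicate 1, however, Nefl (363 CPM) and Ina (315 CPM) lay above Gfap (134 CPM), as in the cKO libraries 1 and 3, so Gfap was second only in control replicates 2 and 3. Over the controls Vim stood apart, at 1895 to 5947 CPM against 134 to 281 CPM of Gfap. Gfap, Nefl and Ina overlapped with their neighbours, Ina stood apart from Nefm, and the genes from Nefm down overlapped.

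Other genes of the filament system were examined in 4 lists, none of which held a gene that passed the test. Of 20 other intermediate filament genes, 11 were tested by edgeR, and 0 passed the adjusted and 0 the unadjusted threshold. Their median log2 fold change was -0.28, beside -0.44 for all genes, and 0.29 beside -0.06 without cKO replicate 2. Krt18, a keratin gene of simple epithelia, had 1296, 253 and 1054 counts in the cKO libraries and 195, 412 and 1100 in the controls, or 209 ± 204 and 42.6 ± 34.6 CPM (SD, n = 3 each), and 91.3 CPM in cKO samples without replicate 2. Its CPM was higher in every cKO library than in any control, by little between cKO replicate 3 (89.5 CPM) and control replicate 3 (81.1 CPM). This was so of 1.33% of all tested genes, and of 13% without cKO replicate 2. Krt10, a keratin gene of the epidermis, had 0, 0 and 126 counts in the cKO libraries and 216, 381 and 165 in the controls. Its CPM was lower in every cKO library than in any control, by little between cKO replicate 3 (10.7 CPM) and control replicate 3 (12.2 CPM). This was so of 11.1% of all tested genes, and of 12.6% without cKO replicate 2. Krt222 had 271, 0 and 74 counts in the cKO libraries and 45, 0 and 0 in the controls, and was higher with no overlap only without cKO replicate 2. Des, the desmin gene of muscle, had 571, 0 and 1827 counts in the cKO libraries and 723, 2404 and 3633 in the controls, and 44.0% of its final 500 exon bases also lie in another gene.

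A broad list of 15 genes was made around linkers, which tie filaments to other structures. It also holds genes of other structures, such as Sytl2 of vesicles and Syne2 of the nuclear envelope. Of the 15 genes, 14 were in the files and 7 were tested by edgeR. Of these, 0 passed the adjusted and 2 the unadjusted threshold (Sytl2 and Syne2), against 2.83% of all genes. Without cKO replicate 2 the unadjusted count was 1 of 9, Sytl2, against 6.09%. The median log2 fold change was -0.77, or -0.03 without cKO replicate 2. Sytl2, a vesicle protein gene of the list, had 0 counts in the cKO libraries and 159, 122 and 208 in the controls. Against a limit of 3 counts it was at least 107-fold lower over the pooled groups, a bound that covers counting error only. Of all tested genes, 11.1% were lower in every cKO library than in any control, and 12.6% without cKO replicate 2. Syne2, which encodes the nuclear envelope protein nesprin-2, had 215, 61 and 48 counts in the cKO libraries and 92, 0 and 0 in the controls. Dst, which encodes the linker dystonin, had 187, 0 and 26 counts in the cKO libraries and 281, 0 and 204 in the controls. Dtna had 611, 1 and 1417 counts in the cKO libraries and 1503, 1541 and 1364 in the controls.

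Of 28 genes of filament kinases, turnover and chaperones, 25 were tested by edgeR, and 0 passed the adjusted and 1, Rock1, the unadjusted threshold, against 2.83% of all genes. Without cKO replicate 2 the unadjusted count was 2 of 27, against 6.09%, and Rock1 was not among them. Their median log2 fold change was 0.02, or 0.34 without cKO replicate 2. Cdk5, the neuronal kinase that phosphorylates neurofilament tails, had 3033, 661 and 1377 counts in the cKO libraries and 2389, 2428 and 1555 in the controls. Its mean of 499 ± 577 CPM in cKO samples and 160 ± 40.03 CPM in controls (SD, n = 3 each) rested on the shallow library, without which the cKO mean was 168 CPM. Rock1, a kinase that phosphorylates vimentin and GFAP, likewise had 172, 377 and 245 counts in the cKO libraries and 99, 69 and 230 in the controls, with cKO means of 232 CPM and of 16.6 CPM without replicate 2. Cdk1, the mitotic kinase that acts on vimentin, had 0, 0 and 136 counts in the cKO libraries and 1, 604 and 255 in the controls. Cryab, a small heat shock protein that binds filaments, had 136, 354 and 157 counts in the cKO libraries and 918, 183 and 1414 in the controls. Its mean was higher in cKO samples with replicate 2 (215 against 61.9 CPM) and lower without it (11.6 against 61.9 CPM).

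Of 16 genes of neurofilament transport along axons and their partners there, 14 were tested by edgeR, and 0 passed the adjusted and 1, Dync1h1, the unadjusted threshold, against 2.83% of all genes. Without cKO replicate 2 the unadjusted count was 0 of 14, against 6.09%. Their median log2 fold change was 0.03, or 0.61 without cKO replicate 2, beside -0.44 and -0.06 for all genes. Dync1h1, the dynein heavy chain that carries filaments back to the cell body, had 3546, 915 and 2047 counts in the cKO libraries and 2383, 320 and 1150 in the controls. The shallow library had its highest level, 1609 CPM, and the cKO mean was 679 CPM with it and 214 CPM without it, against 94.8 CPM in the controls. Kif1a, a kinesin of synaptic vesicle precursors, had 1534, 0 and 1254 counts in the cKO libraries and 785, 0 and 247 in the controls. Dync1i1, a dynein intermediate chain gene, had 88, 0 and 75 counts in the cKO libraries and 228, 264 and 58 in the controls. Mapt, which encodes the axonal microtubule protein tau, had 1268, 0 and 1424 counts in the cKO libraries and 782, 512 and 101 in the controls. Without the shallow library, Kif1a and Mapt lay higher in cKO samples with no overlap, as did 13% of all tested genes.

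The genes with profiles most like Vim and Nefl were found by the root mean square difference between centred log2(CPM + 1) profiles over the 6 libraries, among 7441 tested genes. For Vim these were Hcfc1r1, Ebp, Dbi, Ier2 and Actg2, at 0.09 to 0.24, where the median gene was at 1.25. Actg2, a smooth muscle actin gene, had 3549, 13 and 4659 counts in the cKO libraries and 2953, 13247 and 8385 in the controls. The 5 genes had 0 to 13 counts in cKO replicate 2, the lowest level of the 6 libraries for each. Of the other members, Prph and Gfap were the closest to Vim, at 1.33 and 1.37, and 4201 and 4416 genes were closer. For Nefl the genes were Olfm1, Herc1, Tsc22d3, Vstm2l and Gsk3b, at 0.40 to 0.64, where the median gene was at 2.53. Olfm1, a secreted protein gene of neurons, had 5556, 126 and 6034 counts in the cKO libraries and 3245, 1229 and 810 in the controls. Gsk3b, a kinase that also phosphorylates neurofilaments, had 5133, 131 and 2718 counts in the cKO libraries and 1750, 1013 and 1360 in the controls. For Herc1, 80.2% of the final 500 exon bases also lie in another gene. Nefm and Ina were at 2.23 and 2.44 from Nefl, and 2221 and 3207 genes were closer. Without cKO replicate 2, an alternative added after the values were seen, this changed. Of the 5 genes nearest to Vim 2 were shared (Hcfc1r1 and Ebp), and of those nearest to Nefl 0. Nefm and Ina then lay at 0.64 and 0.61 from Nefl, where the median gene was at 1.47, and 157 and 135 genes were closer. Gfap and Prph then lay at 1.03 and 1.43 from Vim, where the median gene was at 0.99, and 3996 and 5762 genes were closer.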

How the data were processed

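Total RNA was turned into 3' tag libraries (QuantSeq 3' FWD), per the labels' protocols. What the authors deposited are raw counts per gene, 1 file per sample, not normalized: featureCounts 2.0.0 assigned reads to Ensembl release 104 genes on GRCm39 without using strand, per the file headers. The submitters' processing notes also list STAR, FastQC and DESeq2, with neither versions nor roles.

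From these counts, symbols were matched for 52083 of 55416 genes, CPM was computed on all counts of a library, and genes kept by filterByExpr were scaled by TMM and tested with glmQLFit (robust) and glmQLFTest in edgeR 4.0.16 under R 4.3.3, two-sided, cKO against control, 3 samples each, no covariate, with Benjamini-Hochberg adjustment over all 12833 genes and a threshold of 0.05. The standard error is the log2 fold change divided by the square root of F. The members and lists were chosen with earlier results of these data known. Of each list, the 4 tested genes with the smallest p are named, and for likeness the 5 nearest genes with a mean of at least 10 CPM that are no predicted model or pseudogene. Levels relative to marker sums were also added after values were seen. Markers named singly were chosen after their values were seen. They are Aqp4, Aldh1l1, Mlc1, Gja1, Slc1a3, S100b, C1ql1, Ptprz1, Olig1, Olig2, Pdgfra, Cspg4, Vcan, Snap25, Dcx and Gap43. The fit was repeated with DESeq2 1.42.0, with limma-voom (limma 3.58.1), with RLE or upper-quartile factors, with other filters, with the replicate number as a block and with each library left out; the ratio was repeated with other members, a pseudocount of 10 CPM and thinning to 568509 counts. Figures were drawn with matplotlib 3.10.9.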

Additional observations from a re-analysis of the deposited data

How the results depend on the processing

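The count of genes past the adjusted threshold was 2 of 12833 in edgeR. It was 16 with RLE scaling, 0 with upper-quartile scaling, 5 with DESeq2, 14 with limma-voom, 23 with no filter and 1 with the replicate number as a block, and ran from 1 to 7 when each library was left out. Same-numbered samples deviated together with correlations of only 0.01 to 0.08. With 3 libraries per group, 1 of them shallow, this cannot exclude a batch shared by replicate number. The block called 0 members. Members past the threshold were 0 under every alternative except limma-voom, with 1 (Nefl, log2 fold change 2.39, limma-voom adjusted p = 0.0417). The weights of limma-voom ran from 0.237 to 343000 between libraries for Vim and from 0.201 to 10.1 for Nefl. The 4 other lists had 0 calls under every alternative, but DESeq2 gave an adjusted p for only 4 of 7 members and for 3 of 11, 0 of 7, 10 of 25 and 6 of 14 of their genes.

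The difference of the glial to neuronal log2 ratio ran from -4.58 to -2.84 when each library was left out. With Vim left out it was -5.84, a value in which cKO replicate 2, with 0 counts of Gfap and Nes, rested on the added 1 CPM. The difference stayed within 1 SD of -3.57 under the other alternatives, -3.44 with thinning among them. Upper-quartile scaling shifted the median of all genes by 0.43 and RLE by 0.16. With upper-quartile scaling the log2 fold change of Vim was -0.26 and that of Nefl 5.14. Vim and Gfap stayed negative and Nefl positive in all 13 alternatives, but for Vim the sign carries little in some. Its log2 fold change was -0.97 with limma-voom (SE 29.5), and its SE was 2.14 with upper-quartile scaling. Other directions turned: with limma-voom those of Nes (0.43), Prph (1.55), Dst (0.78) and Cryab (-0.79), and with the replicate block those of Nefm (-0.19), Ina (-0.23) and Cryab (-1.2985). Leaving out each library gave -0.0222 to 2.21 for Nefm (lowest without cKO replicate 3), -2.10 to 0.16 for Prph (highest without control replicate 2) and -2.39 to 2.24 for Cryab (lowest without cKO replicate 2). The causes were not tested. On the mean log2(CPM + 1) scale Nefm and Ina were lower in cKO samples, by -0.19 and -0.73, against positive fitted values, with 0 and 2 counts in cKO replicate 2. At full depth the control libraries, of like totals, held 0 counts beside 207 for Nes and 0 beside 495 for Prph. After thinning to the smallest total, Nes, Nefh, Prph, Synm and Sync were the lowest members. They had at most 8, 2, 29, 3 and 4 counts in any library. At that same total cKO replicate 2 still stood apart. Vim, Gfap, Nefm and Ina had 106, 0, 0 and 2 counts there, against at least 995, 21, 7 and 37 in the other libraries. Its 299 counts of Nefl lay within their range of 44 to 505. The cause was not tested.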

Other observations

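Vimentin is also made by mural, smooth muscle and connective tissue cells, and markers of these cells were present. The 8 mural and muscle markers, of which 3 reached 20 counts in every deeper library and 0 lacked a count throughout, summed to 1143, 1020 and 1267 CPM in the cKO libraries and to 896, 2345 and 2826 CPM in the controls. In cKO replicate 2, 2 of the 8 reached 20 counts. Acta2, the smooth muscle actin gene, led this list with 13025, 368 and 13281 counts in the cKO libraries and 10742, 27051 and 29268 in the controls, whereas Tagln, a smooth muscle gene as well, had 0, 0 and 55 counts in the cKO libraries and 0 in the controls. Vim was at 155, 18.3 and 170% of the summed mural and muscle level in the cKO libraries and at 211, 254 and 159% in the controls, so the groups overlapped. Relative to this sum the mean log2 difference of Vim was -1.38, against -2.05 on the CPM scale. Both differences include cKO replicate 2, where Vim was at only 18.3% of this sum, and neither was computed without it. The part of these cells in the level of Vim was not tested. Acta2 and Tagln were chosen after their values were seen.

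The 8 fibroblast and leptomeningeal markers, of which 4 did so and Slc47a1 had 0 in all 6, summed to 5527, 765 and 2742 CPM in the cKO libraries and to 1053, 2178 and 2999 CPM in the controls, an order unlike that of Vim. The 8 ependymal and choroid plexus markers, of which 0 did so and Ccdc153, Tmem212 and Kl had 0 counts in all 6, summed to 404, 46764 and 644 CPM in the cKO libraries and to 66.7, 77.9 and 10.7 CPM in the controls. The highest value is that of the shallow library. Ttr led the sum, with 5224, 26120 and 6756 counts in the cKO libraries and 343, 94 and 2 in the controls. Foxj1 (0, 0 and 288 counts in the cKO libraries, 268, 491 and 66 in the controls) and Pifo (0, 195 and 0 in the cKO libraries, 300, 295 and 77 in the controls) had other orders. These 3 were chosen after their values were seen.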
